A study of Mus musculus with 24 samples.

Results

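The 10 genes described here encode enzymes that make serine, asparagine and proline and that move one-carbon units on folate. They are *Phgdh*, *Psat1*, *Psph*, *Shmt1*, *Shmt2*, *Mthfd2*, *Mthfd1l*, *Aldh1l2*, *Asns* and *Pycr1*, and they were taken by name out of the 56884 genes of the count table. RNA-seq measured them in bone marrow–derived macrophages (BMDM), which are macrophages grown from marrow cells with the growth factor M-CSF. The cells came from 4 wild-type female C57BL/6J mice, 9 weeks old and numbered 1, 2, 4 and 5, and each mouse gave 1 library to each of 6 groups, 24 libraries in all. Naive BMDM received no cytokine for 24 hours. The other 5 groups received IL-4 and IL-13 for 24 hours, each at 20 ng/ml, either alone (IL-4/IL-13) or with an inhibitor that was also given 1 hour beforehand. Tunicamycin, which blocks N-glycosylation in the endoplasmic reticulum (ER), was used at 5 µg/ml. Sal003, which keeps eIF2α phosphorylated by inhibiting its dephosphorylation, was used at 10 µM. Oligomycin, an inhibitor of the mitochondrial ATP synthase, was used at 1 µM in both remaining groups, and ISRIB, which blunts the effect of phosphorylated eIF2α on translation, was added to 1 of these at 1 µM. The labels disagree on which: the titles put ISRIB in the libraries named Oligo, here set A, and the library names put it in the others, here set B. No measured value was used to settle this, so each statement on these groups holds for the set and not for a known presence of ISRIB.

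Serine is made from a glycolytic intermediate in a chain of steps run by PHGDH, PSAT1 and PSPH. SHMT1 in the cytosol and SHMT2 in mitochondria then split serine into glycine and a one-carbon unit carried by folate. In mitochondria MTHFD2 oxidises that unit and MTHFD1L releases it as formate for purine and thymidylate synthesis, whereas ALDH1L2 burns it to carbon dioxide with production of NADPH. ASNS makes asparagine from aspartate and glutamine, and PYCR1 completes proline synthesis in mitochondria. Several of these genes are textbook targets of ATF4, the transcription factor whose translation is favoured when eIF2α is phosphorylated.

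Each library had from 16238727 to 26725278 reads assigned to genes, and the library of set B from mouse 5 was the deepest. The 7 macrophage markers looked at, among them *Adgre1* and *Csf1r*, were detected in all libraries, and their summed level ran from 8721 to 36300 CPM (reads scaled to a common library size by TMM normalization). The 7 IL-4/IL-13 markers summed to between 40.0 and 45.6 CPM in naive BMDM and to between 11800 and 13410 CPM with the cytokines alone. With tunicamycin they summed to between 8.57 and 12.1 CPM, below every naive library, and with Sal003 to between 1922 and 3455 CPM. Their sum ran from 1430 to 1989 CPM in set A and from 2224 to 3939 CPM in set B. The p-values measure the spread between cultures of different mice. Each mouse is in every group, but the main test treats the libraries as unpaired. A fit with the mouse as a block is an alternative, given where it changed a call. In bulk RNA, fewer cells that express a gene and less of its RNA per cell cannot be told apart.

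On GRCm39 the genes lie on 6 chromosomes. *Phgdh* (ENSMUSG00000053398) spans chr3:98220484-98255047, *Psat1* (ENSMUSG00000024640) chr19:15882039-15924701 and *Psph* (ENSMUSG00000029446) chr5:129841925-129864513. *Shmt1* (ENSMUSG00000020534) spans chr11:60661185-60708167, and *Pycr1* (ENSMUSG00000025140) lies on the same chromosome at chr11:120526484-120539269. *Shmt2* (ENSMUSG00000025403, chr10:127352266-127358323), *Mthfd1l* (ENSMUSG00000040675, chr10:3922870-4117081) and *Aldh1l2* (ENSMUSG00000020256, chr10:83323314-83370005) share chromosome 10. *Mthfd2* (ENSMUSG00000005667, chr6:83282673-83302890) and *Asns* (ENSMUSG00000029752, chr6:7671667-7728461) share chromosome 6. *Mthfd1l* is on the plus strand and the others are on the minus strand. Some counts are uncertain because other genes share their sequence. For *Phgdh*, 28.1% of the 50-base words of its transcripts also occur in other genes on the sense strand, the most in *Gm7901*. Exons of *Ndufa4l2* on the opposite strand cover 17.7% of the exon bases of *Shmt2*, those of *Nopchap1* cover 14.1% of *Aldh1l2*, and 9.6% of *Shmt1*, 6.3% of *Psph* and 3.3% of *Asns* are covered likewise. Whether counting used strand, and how it treated reads that fit several genes, is not given in the sources used here. The effect of such partners on these counts is therefore not known.

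RefSeq promoter windows (build GRCm38.p6, 250 bases before to 50 after a start site) were at hand for 9 of the 10 genes, in 10 windows, with none for *Aldh1l2*. The core of the C/EBP-ATF response element, TGATGNAA on either strand, was in 3.97% of all 32851 windows and in 2 windows of these genes, those of *Asns* and *Pycr1*. The 250 bases before the start are shown for both because they are the ones with a match, which is in capitals. The *Asns* stretch is chr6:7693210-7693459 on the minus strand with the match from 23 to 16 bases before the start, and the *Pycr1* stretch is chr11:120643749-120643998 on the minus strand with the match from 103 to 96 bases before it.
Asns: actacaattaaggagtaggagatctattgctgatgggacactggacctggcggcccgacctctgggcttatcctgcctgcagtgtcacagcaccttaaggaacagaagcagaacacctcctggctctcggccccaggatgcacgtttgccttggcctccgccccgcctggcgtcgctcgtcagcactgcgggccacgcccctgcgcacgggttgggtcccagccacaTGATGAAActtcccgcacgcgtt
Pycr1: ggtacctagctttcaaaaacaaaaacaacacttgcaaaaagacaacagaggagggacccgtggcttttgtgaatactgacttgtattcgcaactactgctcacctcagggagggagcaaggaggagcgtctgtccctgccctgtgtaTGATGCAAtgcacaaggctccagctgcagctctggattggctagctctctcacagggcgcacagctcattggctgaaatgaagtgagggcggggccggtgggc
The E-box CACGTG, in 7.15% of all windows, and the ER stress element, CCAAT followed after 9 bases by CCACG and in 0.119% of all windows on either strand, were in none of the 10 windows. A match is a string of letters and not a tested site, and its absence covers only these windows.

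All 10 genes passed the filter on low counts, but *Aldh1l2* and *Pycr1* were scarce in the groups without an inhibitor, and *Pycr1* also with Sal003 and set B. At least 10 reads of *Pycr1* were counted in all 4 libraries of tunicamycin and of set A, in 3 of set B, in 2 of naive BMDM, in 1 of IL-4/IL-13 and in 0 with Sal003. *Aldh1l2* reached 10 reads in every library with an inhibitor and in 2 libraries each of naive and IL-4/IL-13–treated BMDM. These genes could enter the tests through the groups where they were high, so the counts and medians below are also given for the other 8.

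Adding IL-4 and IL-13 raised 6 of the 10 genes and lowered 0, by edgeR's quasi-likelihood test at an adjusted p under 0.05. Every adjusted p given here comes from that test. Of all 13679 genes tested, 30.1% were higher and 30.4% lower. All 6 genes that rose were among the 8 that are not scarce. *Psat1*, *Phgdh* and *Mthfd1l* rose at least 2.5-fold, as did 5.39% of all genes. The median log2 fold change of the 10 genes was 0.47, that of the 8 was 0.62 and that of all genes -0.02.

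Tunicamycin raised 8 of the 10 genes above IL-4/IL-13 alone and lowered 0, beside 38.7% of all genes higher and 37.6% lower. Without *Aldh1l2* and *Pycr1* these were 6 of 8. The rise was at least 2.5-fold for 7 of the 10 and 5 of the 8, beside 8.56% of all genes. Set A raised 8 and lowered 1 (all genes, 34.0% and 32.2%), with 6 raised at least 2.5-fold (all genes, 4.79%). Among the 8 it raised 6 and lowered 1, with 4 raised at least 2.5-fold. Set B raised 7 and lowered 1 (all genes, 27.9% and 26.4%), with 4 raised at least 2.5-fold (all genes, 2.94%). Among the 8 it raised 5 and lowered 1, with 3 raised at least 2.5-fold. Sal003 raised 5 and lowered 3 (all genes, 25.9% and 24.6%). With it 2 rose at least 2.5-fold (all genes, 2.68%) and 1 fell as far (all genes, 5.04%), and among the 8 it raised 4 and lowered 3, with 2 and 1 as far. The median log2 fold change of the 10 genes was 2.51 with tunicamycin, 2.04 with set A, 0.97 with set B and 0.33 with Sal003, and the medians over all genes lay between 0.00 and 0.01. Without *Aldh1l2* and *Pycr1* the medians were 1.79, 1.16, 0.79 and 0.18 in the same order. These comparisons share the IL-4/IL-13 libraries.

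**Figure D1:**
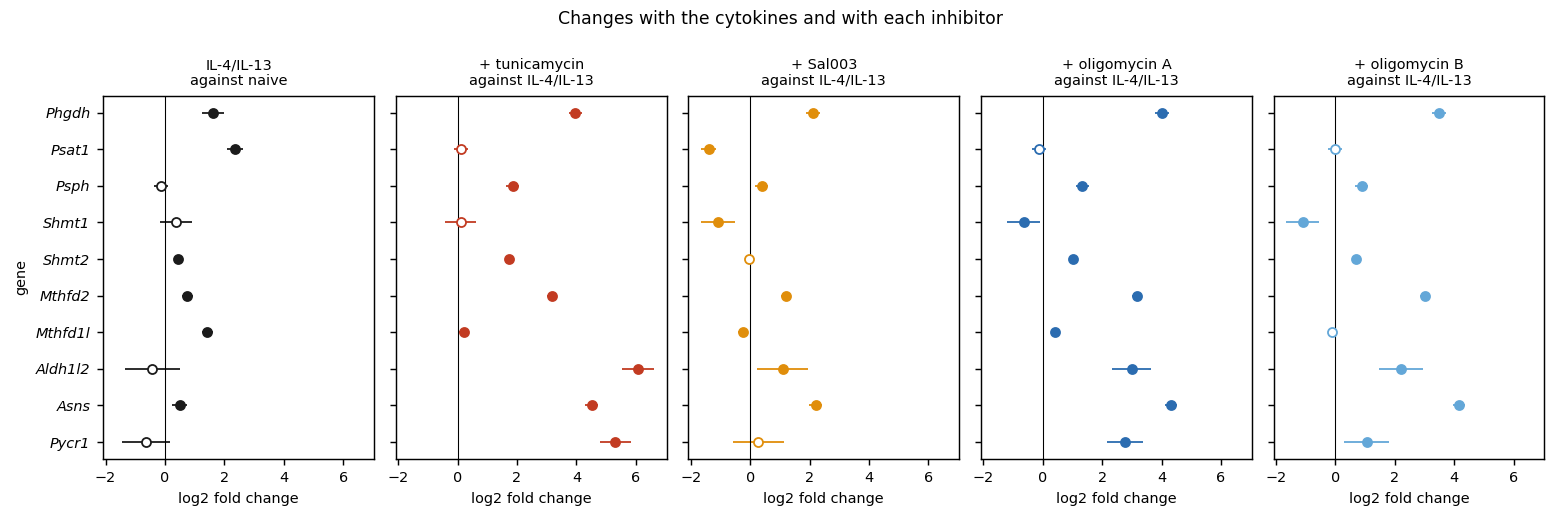
Log2 fold changes with 95% confidence intervals (x axes) of the 10 genes (y axis) for IL-4/IL-13 against naive and for each inhibitor against IL-4/IL-13, with 4 mice a group. Filled points passed edgeR's quasi-likelihood test at an adjusted p under 0.05, and *Asns*, *Phgdh* and *Mthfd2* are filled and to the right of 0 in all 5 panels.

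*Phgdh* encodes the enzyme of the first step of serine synthesis. In mice 1, 2, 4 and 5 its level was 2.15, 1.54, 1.88 and 1.04 CPM in naive BMDM and 5.07, 5.25, 5.21 and 4.67 CPM with IL-4/IL-13. With tunicamycin it was 85.3, 76.7, 81.2 and 74.3 CPM, and with Sal003 27.2, 20.6, 18.8 and 21.2 CPM. Set A gave 84.6, 78.8, 83.0 and 79.2 CPM and set B 64.0, 50.6, 58.3 and 53.3 CPM. The 4 libraries of each inhibitor lay above all libraries without one, and only tunicamycin and set A overlapped. The log2 fold change was 1.61 for the cytokines against naive (SE, the standard error, 0.18, adjusted p = 2.3e-08). Against IL-4/IL-13 it was 3.97 with tunicamycin (SE 0.11, adjusted p = 1.5e-20), 4.01 with set A (0.11, 7.8e-20), 3.48 with set B (0.11, 7.7e-18) and 2.12 with Sal003 (0.12, 2.1e-13). Tunicamycin differed from set A by -0.04 on the log2 scale (SE 0.08, adjusted p = 0.72), and the 95% interval of their ratio ran from 0.865 to 1.10.

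*Psat1*, the aminotransferase of the next step, moved mainly with the cytokines. Its level was 8.39, 9.55, 6.54 and 5.86 CPM in naive BMDM and 40.1, 40.4, 37.4 and 37.2 CPM with IL-4/IL-13, a log2 fold change of 2.36 (SE 0.14, adjusted p = 1.2e-13). The 4 libraries with tunicamycin ran from 40.4 to 44.1 CPM, those of set A from 33.6 to 38.3 CPM and those of set B from 31.4 to 46.1 CPM. These ranges overlapped that of IL-4/IL-13, and the log2 fold changes were 0.12 (adjusted p = 0.34), -0.12 (0.37) and -0.03 (0.86). The 95% intervals of the 3 ratios to IL-4/IL-13 ran from 0.924 to 1.28, from 0.780 to 1.09 and from 0.832 to 1.16. Fitted with their own libraries alone, set A and IL-4/IL-13 differed by -0.13 (adjusted p = 0.028). Sal003 lowered *Psat1*, to 17.2, 13.8, 16.7 and 11.2 CPM, below every IL-4/IL-13 library and above every naive library. The log2 fold change was -1.40 against IL-4/IL-13 (SE 0.13, adjusted p = 9.8e-10) and 0.96 against naive (SE 0.15, adjusted p = 3.8e-06).

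*Psph*, the phosphatase that releases serine, did not pass the test with the cytokines (log2 fold change -0.15, adjusted p = 0.27). In IL-4/IL-13–treated BMDM it was at 7.01 CPM in mouse 2 and between 4.90 and 5.22 CPM in the others. Without that library the difference from naive was -0.29 (adjusted p = 0.023). With tunicamycin its 4 libraries ran from 18.6 to 21.1 CPM, with set A from 13.1 to 14.7 CPM, with set B from 9.33 to 11.0 CPM and with Sal003 from 6.37 to 7.88 CPM. Tunicamycin and both oligomycin sets were apart from IL-4/IL-13 and from each other, with log2 fold changes against IL-4/IL-13 of 1.85 (SE 0.10, adjusted p = 1.5e-14), 1.33 (0.10, 3.3e-11) and 0.89 (0.11, 1.1e-07). The Sal003 libraries overlapped those of IL-4/IL-13, and the difference of 0.39 (SE 0.11, adjusted p = 0.0052) did not pass without mouse 1 (0.30, adjusted p = 0.099) or mouse 5 (0.31, adjusted p = 0.078).

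**Figure D2:**
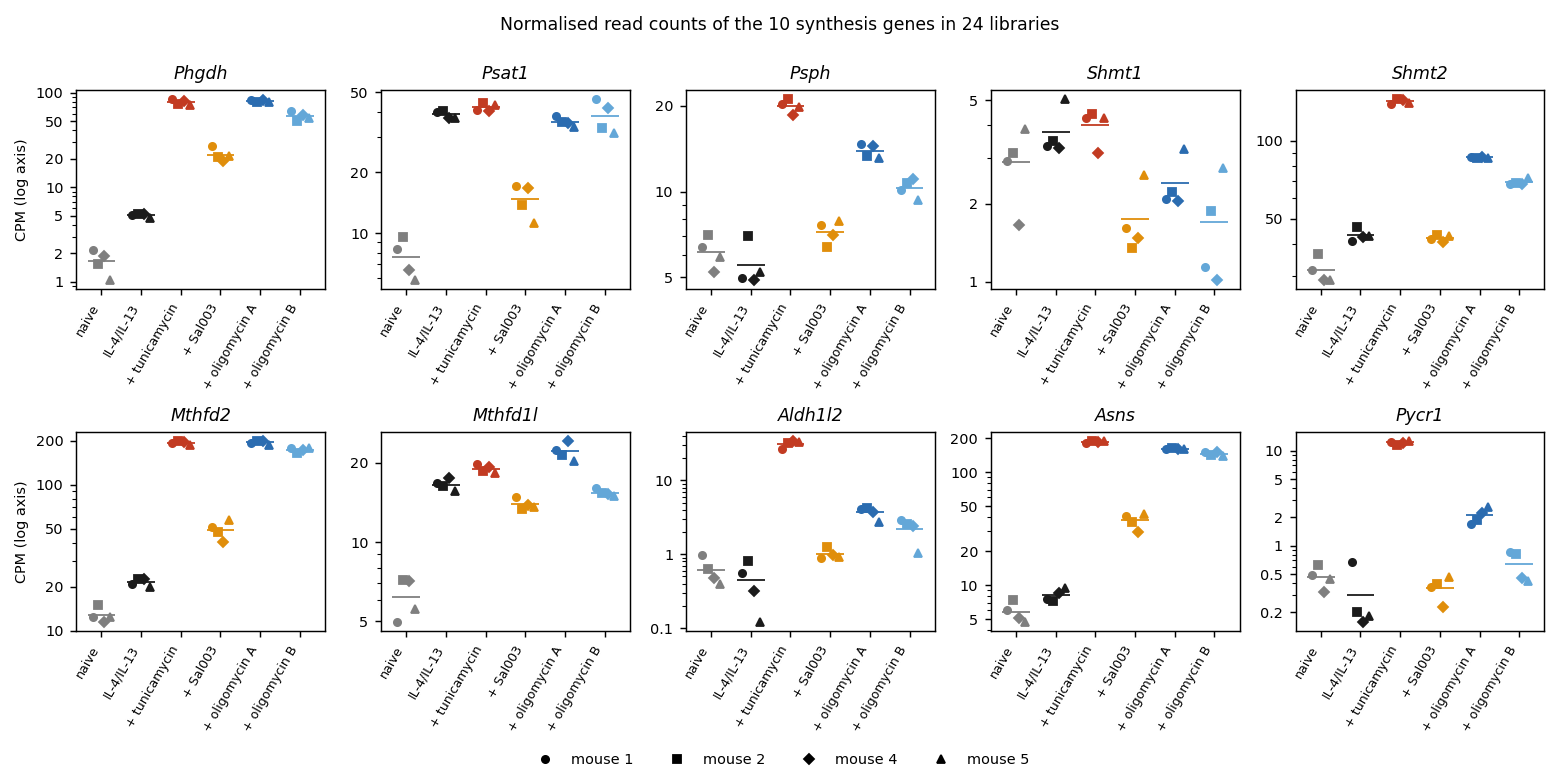
TMM-normalized CPM (y axes, log scale) of each gene in every library of the 6 groups (x axes), with 1 symbol per mouse and a line at the group mean. *Phgdh*, *Mthfd2* and *Asns* are near their top level with both tunicamycin and set A, *Aldh1l2* and *Pycr1* with tunicamycin, and the 4 *Psat1* libraries with Sal003 lie between those of naive and IL-4/IL-13–treated BMDM.

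*Shmt2*, the mitochondrial serine hydroxymethyltransferase, was at 31.6, 36.6, 28.9 and 29.0 CPM in naive BMDM and at 40.9, 46.3, 42.4 and 42.7 CPM with IL-4/IL-13 (log2 fold change 0.45, SE 0.06, adjusted p = 1.3e-07). Tunicamycin gave 139, 145, 144 and 140 CPM, set A 86.6, 86.0, 86.7 and 86.1 CPM and set B 68.1, 68.6, 68.0 and 71.6 CPM. These 3 groups did not overlap each other or any other group. Their log2 fold changes against IL-4/IL-13 were 1.72 (SE 0.05, adjusted p = 1.2e-19), 1.00 (0.05, 2e-14) and 0.68 (0.05, 8.5e-11). With Sal003 the 4 libraries, from 40.5 to 43.4 CPM, overlapped those of IL-4/IL-13. That difference was -0.03 (adjusted p = 0.65) with a 95% interval of the ratio from 0.904 to 1.06.

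Its cytosolic counterpart *Shmt1* was low, and no inhibitor raised it above IL-4/IL-13 alone. In mice 1, 2, 4 and 5 it was at 3.34, 3.48, 3.26 and 5.04 CPM with IL-4/IL-13, at 1.61, 1.35, 1.47 and 2.57 CPM with Sal003 and at 1.14, 1.87, 1.02 and 2.75 CPM with set B. Each library with Sal003 or set B was below every IL-4/IL-13 library, by log2 fold changes of -1.09 (SE 0.28, adjusted p = 0.0018) and -1.10 (SE 0.27, adjusted p = 0.0014). Set A, at 2.08, 2.21, 2.04 and 3.25 CPM, was also lower (-0.65, SE 0.26, adjusted p = 0.032). That call was lost without mouse 1 (-0.65, adjusted p = 0.10), without mouse 2 (-0.65, 0.11), without the IL-4/IL-13 library of mouse 5 (-0.50, 0.12) or without the set A library of mouse 1 (-0.59, 0.080), mouse 2 (-0.61, 0.071) or mouse 4 (-0.58, 0.080). With the mouse as a block the set A difference passed (-0.66, adjusted p = 0.00083), and *Shmt1* was lower in set A in 4 of 4 mice. With tunicamycin *Shmt1* ran from 3.12 to 4.43 CPM and did not pass (0.10, adjusted p = 0.73). The cytokines gave 0.37 (adjusted p = 0.22), which passed once the mouse was a block (0.39, adjusted p = 0.034). Mouse 5 had the highest level in 5 of the 6 groups.

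*Mthfd2*, whose enzyme oxidises methylene-tetrahydrofolate in mitochondria, was the most abundant of the 10 transcripts per exon length in every group with an inhibitor. Its level was 12.4, 15.1, 11.5 and 12.3 CPM in naive BMDM and 20.7, 22.7, 22.7 and 19.9 CPM with IL-4/IL-13. With tunicamycin it was 195, 199.6, 196 and 186 CPM and with Sal003 51.2, 47.5, 40.5 and 57.0 CPM. Set A gave 195, 199, 199.5 and 188 CPM and set B 179.9, 166, 173 and 179 CPM. As for *Phgdh*, every inhibitor library lay above all others, and only tunicamycin and set A overlapped. Against naive the cytokines gave a log2 fold change of 0.75 (SE 0.09, adjusted p = 5.6e-08). Against IL-4/IL-13 tunicamycin gave 3.17 (SE 0.08, adjusted p = 1.7e-21), set A 3.18 (0.08, 1.3e-20), set B 3.02 (0.08, 1.9e-19) and Sal003 1.19 (0.08, 5.3e-12). The ratio of tunicamycin to set A had a 95% interval from 0.9004 to 1.10 (adjusted p = 0.92).

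*Mthfd1l*, the mitochondrial formyl-tetrahydrofolate synthetase, rose with the cytokines and changed little with the inhibitors. It was at 4.98, 7.16, 7.13 and 5.57 CPM in naive BMDM and at 16.7, 16.4, 17.5 and 15.6 CPM with IL-4/IL-13, a log2 fold change of 1.42 (SE 0.09, adjusted p = 3.7e-13). Set A, from 20.4 to 24.2 CPM, lay above every IL-4/IL-13 library (0.42, SE 0.08, adjusted p = 3.7e-05), and Sal003, from 13.4 to 14.9 CPM, lay below every one (-0.25, SE 0.08, adjusted p = 0.011). Without mouse 4 the Sal003 difference did not pass (-0.22, adjusted p = 0.061). Tunicamycin gave 0.20 (adjusted p = 0.022), which was lost with upper-quartile factors (0.15, adjusted p = 0.087), with at least 10 counts required in every library (0.15, 0.070), without mouse 2 (0.20, 0.052) and without the tunicamycin library of mouse 1 (0.18, 0.058). Set B, at -0.10, did not pass (adjusted p = 0.28).

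*Aldh1l2*, the mitochondrial formyl-tetrahydrofolate dehydrogenase, changed the most with tunicamycin. It was counted 10, 16, 6 and 2 times in the IL-4/IL-13 libraries of mice 1, 2, 4 and 5, which is 0.557, 0.807, 0.316 and 0.121 CPM, and naive BMDM ran from 0.398 to 0.976 CPM. Tunicamycin gave 26.9, 32.6, 34.2 and 32.8 CPM. Set A gave 4.12, 4.23, 3.77 and 2.698 CPM, set B 2.87, 2.53, 2.43 and 1.05 CPM and Sal003 0.882, 1.24, 0.963 and 0.927 CPM. No inhibitor library was as low as the highest IL-4/IL-13 library, and those of tunicamycin lay far above all others. The log2 fold change against IL-4/IL-13 was 6.07 with tunicamycin (SE 0.27, adjusted p = 1.2e-16), which is 67.4-fold with a 95% interval from 46.1 to 98.4. With set A it was 2.99 (SE 0.32, adjusted p = 1.2e-08) and with set B 2.20 (0.35, 1e-05). The Sal003 value of 1.10 (SE 0.41, adjusted p = 0.030) did not pass without mouse 4 (0.97, adjusted p = 0.14), without its IL-4/IL-13 library alone (0.95, 0.083), without that of mouse 5 (0.81, 0.11) or without the Sal003 library of mouse 2 (0.99, 0.078). The cytokines gave -0.43 (adjusted p = 0.43).

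The cytosolic enzyme of the same reaction, encoded by *Aldh1l1*, went in the opposite direction with tunicamycin and the oligomycin sets. It rose with the cytokines from between 15.1 and 18.9 CPM to between 35.1 and 39.0 CPM (log2 fold change 1.19, SE 0.06, adjusted p = 2.4e-14). With tunicamycin 0.462, 0.619, 0.794 and 0.611 CPM were left in mice 1, 2, 4 and 5, from 9 to 14 counts, a log2 fold change of -5.90 (SE 0.10, adjusted p = 1.8e-24). Set A (-2.09, adjusted p = 1.1e-18), set B (-0.63, 3.4e-09) and Sal003 (-0.28, 0.00043) also lowered it. Per exon length, *Aldh1l2* made up 1.34% ± 0.83 (SD, n = 4) of the summed TPM (reads per exon length, scaled to the same total in each library) of both genes with IL-4/IL-13 alone and 98.3% ± 0.22 with tunicamycin. It made up 32.4% ± 4.7 in set A, 9.41% ± 3.2 in set B, 3.57% ± 0.48 with Sal003 and 4.09% ± 1.5 in naive BMDM. These shares describe RNA levels in 4 mice and carry no test of their own.

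**Figure D3:**
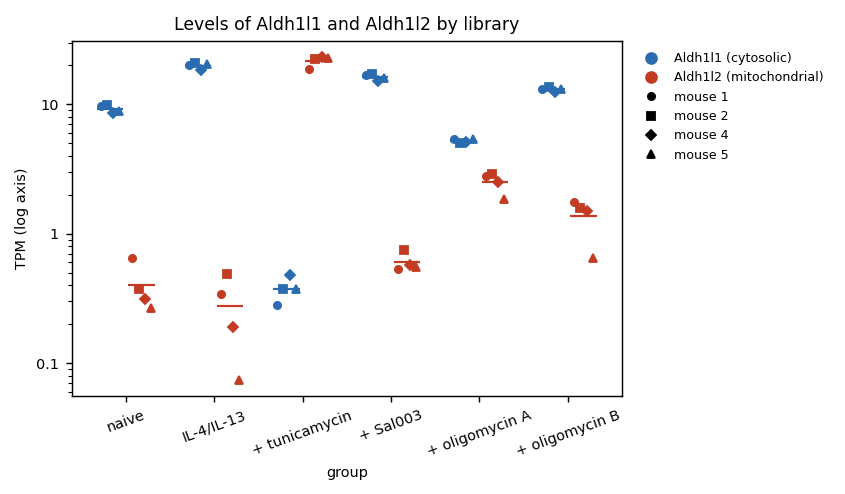
TPM (y axis, log scale) of *Aldh1l1* and *Aldh1l2* in each library by group (x axis), with 1 symbol per mouse and lines at the group means. *Aldh1l1* lies above *Aldh1l2* in every library except the 4 with tunicamycin, where *Aldh1l2* averaged 21.8 TPM and *Aldh1l1* 0.377 TPM.

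*Asns*, the asparagine synthetase gene, rose with each of the 4 inhibitors. Its level was 6.00, 7.33, 5.10 and 4.72 CPM in naive BMDM and 7.46, 7.26, 8.53 and 9.35 CPM with IL-4/IL-13. With tunicamycin it was 180.0, 188, 186 and 187 CPM and with Sal003 41.1, 36.4, 29.8 and 42.7 CPM. Set A gave 159, 163, 161 and 161 CPM and set B 151, 141, 150.1 and 140 CPM. No 2 inhibitor groups overlapped, and Sal003 lay between the other inhibitors and the cytokines alone. Against IL-4/IL-13 the log2 fold changes were 4.51 with tunicamycin (SE 0.10, adjusted p = 2.2e-22), 4.31 with set A (0.10, 4.5e-21), 4.16 with set B (0.10, 4.5e-20) and 2.21 with Sal003 (0.10, 8.1e-15). The rise with the cytokines alone was 0.50 (SE 0.13, adjusted p = 0.0015), seen in 3 of 4 mice, and the naive and IL-4/IL-13 libraries overlapped.

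*Pycr1* was near the limit of detection without tunicamycin or set A. With IL-4/IL-13 it was counted 12, 4, 3 and 3 times in mice 1, 2, 4 and 5, which is 0.668, 0.202, 0.158 and 0.182 CPM. Tunicamycin gave 12.4, 11.6, 12.1 and 12.6 CPM, set A 1.70, 1.88, 2.20 and 2.55 CPM and set B 0.867, 0.827, 0.452 and 0.426 CPM. Tunicamycin and set A were apart from all other groups, whereas set B overlapped IL-4/IL-13. The log2 fold change was 5.31 with tunicamycin (SE 0.25, adjusted p = 5.7e-16) and 2.76 with set A (0.30, 1e-08). Without the IL-4/IL-13 library of mouse 1 these were 6.02 (adjusted p = 1.6e-16) and 3.48 (3.6e-10). The set B value of 1.05 (SE 0.37, adjusted p = 0.018) was 1.76 (0.00026) without that library. It did not pass without mouse 2 (0.75, adjusted p = 0.17), without mouse 4 (0.95, 0.060), without the IL-4/IL-13 library of mouse 2 (0.89, 0.064), mouse 4 (0.83, 0.069) or mouse 5 (0.88, 0.062), or without the set B library of mouse 1 (0.87, 0.067) or mouse 2 (0.91, 0.058). Sal003, from 0.227 to 0.463 CPM, gave 0.27 (adjusted p = 0.61). The cytokines gave -0.63 against naive (adjusted p = 0.17) and, without the same library of mouse 1, -1.34 (adjusted p = 0.0087).

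The inhibitors were then compared directly. All 10 genes were higher with tunicamycin than with Sal003 and 0 were lower (all genes, 35.9% higher and 36.0% lower), and all 8 were higher without the scarce pair. The differences ran from 0.45 for *Mthfd1l* to 5.04 for *Pycr1*. Set A exceeded Sal003 in 9 of 10 genes (all genes, 25.1% higher and 26.4% lower) and in 7 of the 8. *Shmt1* was the exception (0.44, adjusted p = 0.21), and passed with the mouse as a block (0.45, adjusted p = 0.044). Set B exceeded Sal003 in 7 of 10 genes, where 9.74% of all genes were higher and 8.77% lower, and in 6 of the 8. Here *Shmt1* (-0.01, adjusted p = 0.99), *Mthfd1l* (0.15, 0.23) and *Pycr1* (0.78, 0.13) did not pass, and *Aldh1l2* (1.10, 0.012) did not pass without mouse 1 (0.88, 0.13), mouse 4 (1.03, 0.097) or the set B library of mouse 1 (0.94, 0.051).

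Tunicamycin was higher than set A for 6 genes and lower for 1 (all genes, 31.4% and 32.1%), and for 4 and 1 of the 8. By far the largest differences were those of *Aldh1l2* (log2 3.09, SE 0.19, adjusted p = 3.2e-13) and *Pycr1* (2.55, 0.18, 5.8e-12), each higher in 4 of 4 mice. *Shmt2* (0.72, adjusted p = 4.8e-12), *Shmt1* (0.75, 0.014) and *Psph* (0.52, 2.2e-05) followed. For *Shmt1* the call was lost without mouse 1 (0.70, 0.080) or mouse 2 (0.66, 0.10). With the mouse as a block it passed (0.76, adjusted p = 0.00017), and *Shmt1* was higher with tunicamycin in 4 of 4 mice. *Asns* differed by 0.20 (adjusted p = 0.027) and *Mthfd1l* by -0.22 (0.015), and both calls changed with some settings or single libraries. For *Asns* these were upper-quartile factors (0.16, adjusted p = 0.081) and leaving out mouse 1 (0.25, 0.051), the tunicamycin library of mouse 2 (0.20, 0.057), 4 (0.20, 0.050) or 5 (0.20, 0.052) or the set A library of mouse 1 (0.20, 0.058) or 5 (0.20, 0.051). For *Mthfd1l* they were no filter (-0.18, 0.10) and leaving out mouse 1 (-0.20, 0.050), mouse 4 (-0.18, 0.091), mouse 5 (-0.20, 0.069) or the set A library of mouse 4 (-0.17, 0.069). *Psat1*, at 0.24 (0.068), passed with the mouse as a block (0.25, adjusted p = 0.026), with no filter (0.28, 0.0092), when only the 2 groups were fitted (0.24, 0.00029) and without mouse 1 (0.33, 0.040). Against set B tunicamycin was higher for 9 genes and lower for 0 (all genes, 35.4% and 35.7%), and for 7 of the 8. *Psat1* was the exception (0.15, adjusted p = 0.25) and passed without mouse 1 (0.31, 0.045). *Mthfd2* (0.15, 0.049) was at the threshold and did not pass in 12 alternatives, among them leaving out mouse 1 (0.057), mouse 2 (0.18) or mouse 4 (0.065) and leaving out any single library of the pair of groups except that of tunicamycin from mouse 5.

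Set A was higher than set B for 6 genes and lower for 0, beside 19.9% of all genes higher and 21.3% lower, and for 4 of the 8. *Pycr1* differed most (1.71, SE 0.25, adjusted p = 5e-06), followed by *Aldh1l2* (0.79, 0.24, 0.0099), *Phgdh* (0.53, 0.09, 1.8e-05), *Mthfd1l* (0.52, 0.08, 5.2e-06), *Psph* (0.43, 0.10, 0.00067) and *Shmt2* (0.32, 0.05, 1.8e-05). Each of these was higher in set A in 4 of 4 mice. Without the set B library of mouse 5, the deepest, *Aldh1l2* did not pass (0.51, adjusted p = 0.059) and *Shmt1* did (0.83, adjusted p = 0.028). *Shmt1* also passed with the mouse as a block (0.48, adjusted p = 0.035, against 0.45 and 0.22 without it). *Asns* (0.15, adjusted p = 0.15) and *Mthfd2* (0.16, 0.061) did not pass although their libraries did not overlap, and both passed when only the 2 sets were fitted (0.0070 and 0.0039), and *Mthfd2* with upper-quartile factors (0.20, 0.025). Under either reading of the labels, *Phgdh*, *Psph*, *Shmt2*, *Mthfd2*, *Asns* and *Aldh1l2* stayed above IL-4/IL-13 alone in every library of both sets. The share of all genes that did so was not counted. By the test, 34.0% of all genes were higher than with IL-4/IL-13 alone in set A and 27.9% in set B.

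**Figure D4:**
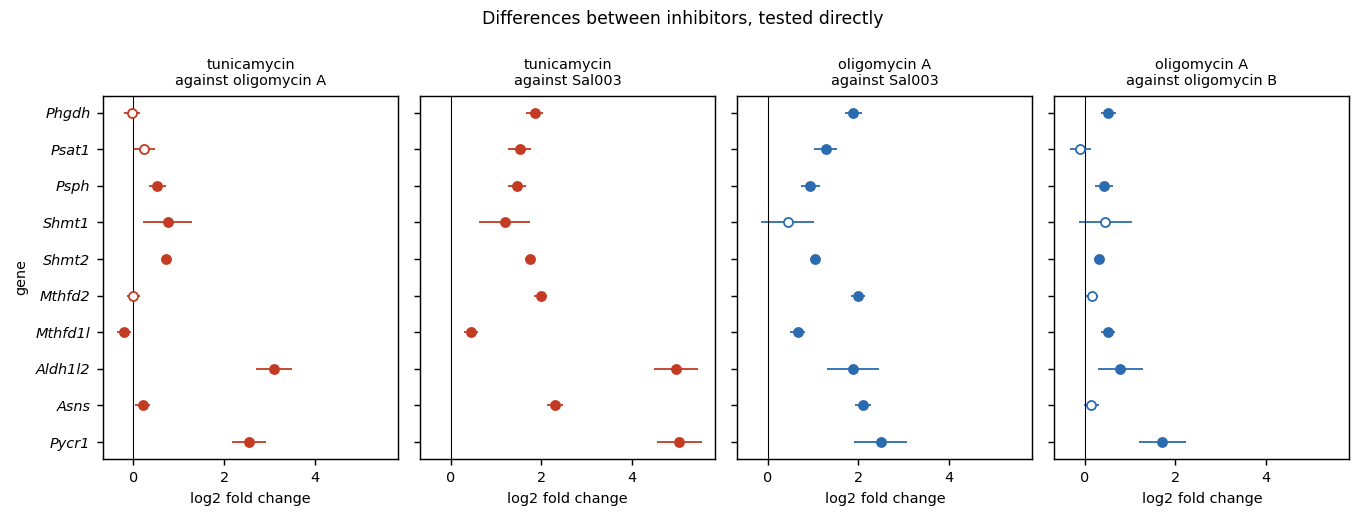
Log2 fold changes with 95% confidence intervals (x axes) of the 10 genes (y axis) for 4 direct comparisons of inhibitors, with 4 mice a group and filled points for genes that passed at an adjusted p under 0.05. *Aldh1l2* and *Pycr1* stand out at 3.09 and 2.55 between tunicamycin and set A, where *Phgdh* and *Mthfd2* lie near 0.

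Against naive BMDM, tunicamycin gave 9 genes higher and 0 lower (all genes, 37.1% and 40.5%), or 7 of the 8. *Shmt1* was the exception at 0.47 (adjusted p = 0.093), and passed with the mouse as a block (0.49, adjusted p = 0.0059), with no filter (0.54, 0.025), without mouse 5 (0.66, 0.0081) or without its naive library alone (0.65, 0.035). Set A gave 9 higher and 0 lower (all genes, 35.5% and 35.5%), or 7 of the 8, and set B gave 8 higher and 1 lower (all genes, 32.6% and 31.2%), or 7 and 1 of the 8. Sal003 gave 6 higher and 1 lower (all genes, 31.7% and 30.8%), or 6 and 1 of the 8. The gene lowered in both cases was *Shmt1*, by -0.73 in set B (adjusted p = 0.025) and -0.72 with Sal003 (0.030). The set B call was lost without mouse 1 (-0.58, adjusted p = 0.17), mouse 2 (-0.73, 0.088), the naive library of mouse 5 (-0.55, 0.11) or the set B library of mouse 1 (-0.58, 0.090) or 4 (-0.56, 0.093). The Sal003 call was lost without mouse 1 (-0.68, 0.12), mouse 2 (-0.58, 0.17), the naive library of mouse 1 (-0.72, 0.051), 2 (-0.68, 0.053) or 5 (-0.54, 0.12) or the Sal003 library of mouse 1 (-0.68, 0.067), 2 (-0.61, 0.087) or 4 (-0.65, 0.072). With the mouse as a block both *Shmt1* calls passed, at -0.75 in set B (adjusted p = 0.00067) and -0.72 with Sal003 (0.0012). In both cases *Shmt1* was lower in 4 of 4 mice. *Psph*, at 0.24 with Sal003 (adjusted p = 0.060), passed without mouse 2 (0.36, 0.0032) or without its naive (0.31, 0.018) or Sal003 library (0.29, 0.030). The ratios to naive reached 50.2-fold for *Aldh1l2* with tunicamycin, with a 95% interval from 35.04 to 71.8. For *Phgdh* they were 49.1-fold in set A, with an interval from 40.7 to 59.2, and 47.9-fold with tunicamycin, with an interval from 39.6 to 57.8.

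Per exon length, the 10 genes summed to 75.0 TPM ± 6.0 (SD, n = 4) in naive BMDM and 129 TPM ± 4.4 with IL-4/IL-13. The sum was 777 TPM ± 12 with tunicamycin, 654 TPM ± 8.4 in set A, 495 TPM ± 18 in set B and 179 TPM ± 16 with Sal003. The highest IL-4/IL-13 library, at 136 TPM, was below the lowest Sal003 library, at 158 TPM. *Shmt2* held 49.4% of the sum in naive BMDM and *Mthfd2* 22.6%. With set A *Mthfd2* held 41.7%, *Phgdh* 22.5%, *Shmt2* 16.4% and *Asns* 10.7%. *Psat1* held 23.3% with IL-4/IL-13 alone and 4.77% with tunicamycin, a share that fell while its level did not. TPM here divides by all annotated exons of a gene, so a gene with long, little-used exons is given too low a value.

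**Figure D5:**
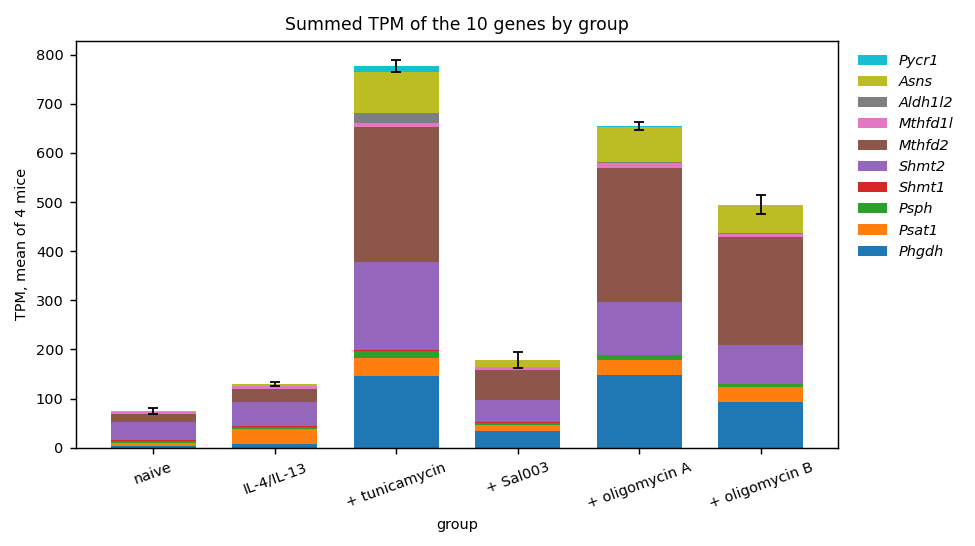
Mean TPM of each of the 10 genes stacked by group (y axis in TPM, groups on the x axis), with the SD of the summed TPM over 4 mice as the error bar. The stacks reach 75.0 TPM in naive BMDM, 129 TPM with IL-4/IL-13 and 777 TPM with tunicamycin. The tunicamycin stack is mostly *Mthfd2*, *Shmt2* and *Phgdh*.

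Neighbouring genes of the same routes were looked at as lists, and their counts stand beside the shares of all genes in the same comparison. Of 16 other genes of proline, glutamate and aspartate metabolism, 14 could be tested, and tunicamycin raised 8 and lowered 4 (all genes, 38.7% and 37.6%). *Aldh18a1*, which starts proline synthesis from glutamate, rose from 9.46 to 142 CPM with tunicamycin (log2 fold change 3.90, SE 0.06, adjusted p = 3.9e-25). It also rose with set A (2.75), set B (2.24) and Sal003 (0.80). *Gfpt1*, which uses glutamine for hexosamine synthesis, rose by 3.68 with tunicamycin, 1.44 with set A and 0.54 with Sal003. Glutamine synthetase, *Glul*, fell by 1.37 with tunicamycin, 0.96 with set A and 0.57 with set B. In set A 4 of the 14 rose and 7 fell (all genes, 34.0% and 32.2%), in set B 3 and 7 (27.9% and 26.4%), and with Sal003 2 and 6 (25.9% and 24.6%).

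Of 17 other genes of folate and one-carbon metabolism, tunicamycin raised 9 and lowered 6 (all genes, 38.7% and 37.6%). Set A raised 9 and lowered 4 (34.0% and 32.2%), set B 8 and 4 (27.9% and 26.4%) and Sal003 8 and 4 (25.9% and 24.6%). Their median log2 fold changes were 0.28 with tunicamycin, 0.18 with set A, 0.16 with set B and 0.20 with Sal003. *Fpgs*, which adds the glutamate tail that keeps folate in the cell, rose by 2.15 with tunicamycin, and *Mtrr*, which reactivates methionine synthase, by 1.62. The folate receptor gene *Folr2* fell by 3.98 with tunicamycin. *Tyms*, of thymidylate synthesis, fell with Sal003 (-1.68) and set B (-1.75). Among 9 testable genes of other serine and glycine metabolism, tunicamycin raised 6 and lowered 1 (38.7% and 37.6%). Set A raised 3 (34.0%), set B 2 (27.9%) and Sal003 2 (25.9%), with 0 lowered by these 3. Serine racemase, *Srr*, and *Sptlc2*, which joins serine to palmitate for sphingolipids, rose with each inhibitor, by between 0.30 and 0.77. The cytokines alone had lowered both, *Srr* (-0.34, adjusted p = 8.8e-05) and *Sptlc2* (-0.49, 8.5e-07). With tunicamycin *Srr* averaged 21.3 CPM beside 19.3 CPM in naive BMDM, and *Sptlc2* 116 CPM beside 109 CPM.

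*Atf4* itself was measured beside its textbook targets. It was at 143, 134, 124 and 142 CPM with IL-4/IL-13 and at 1094, 1111, 1066 and 1104 CPM with tunicamycin. Set A gave 706, 706, 699 and 706 CPM, set B 480.0, 461, 466 and 505 CPM and Sal003 215, 193, 173 and 245 CPM. No 2 inhibitor groups overlapped, and each lay above IL-4/IL-13. The log2 fold changes were 3.01 (SE 0.08, adjusted p = 3.2e-21), 2.38 (0.08, 1.1e-18), 1.82 (0.07, 5.4e-16) and 0.61 (0.07, 1.8e-07). A list of 9 genes, made up of stress bZIP factors, *Atf4* among them, and of *Nupr1*, which is no bZIP factor, could be tested in full. Tunicamycin raised 8 and lowered 1 (all genes, 38.7% and 37.6%), set A raised 8 and lowered 1 (34.0% and 32.2%), set B raised 7 and lowered 1 (27.9% and 26.4%), and Sal003 raised 5 and lowered 1 (25.9% and 24.6%). The gene lowered was *Atf3* with tunicamycin (-1.48), set A (-0.27) and Sal003 (-0.42) and *Xbp1* in set B (-0.20). *Nupr1*, a stress-induced chromatin protein, rose in all 4, by 4.89, 3.09, 2.03 and 1.15 in the same order.

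Markers of macrophages and of other states and cells moved in the same comparisons. Of the 7 macrophage markers the cytokines raised 0 and lowered 6 (all genes, 30.1% and 30.4%). Tunicamycin raised 3 and lowered 3 (38.7% and 37.6%), and set A raised 2 and lowered 4 (34.0% and 32.2%). Set B raised 3 and lowered 1 (27.9% and 26.4%), as did Sal003 (25.9% and 24.6%). The 10 proliferation genes summed to between 250.4 and 288 CPM in naive BMDM and between 724 and 829 CPM with IL-4/IL-13, and all 10 rose (all genes, 30.1%). Each inhibitor lowered all 10, to between 150.3 and 158 CPM with tunicamycin, 280.4 and 309 CPM for set A, 393 and 411 CPM for set B and 376 and 430 CPM with Sal003. Of all genes, 37.6% were lower with tunicamycin, 32.2% in set A, 26.4% in set B and 24.6% with Sal003. Neutrophil markers, 9 genes, summed to between 24.3 and 45.0 CPM with IL-4/IL-13, between 0.103 and 0.286 CPM with tunicamycin, 2.75 and 4.82 CPM for set A, 19.0 and 24.9 CPM for set B and 5.19 and 8.55 CPM with Sal003. *Camp*, *Ly6g* and *Elane* were at 0 counts in all libraries of tunicamycin and of set A. Of 6 dendritic cell markers 5 could be tested, and each inhibitor lowered all 5, beside the same shares of all genes. Their sum ran from 10.47 to 11.5 CPM with IL-4/IL-13, from 1.65 to 2.496 CPM with tunicamycin, from 2.02 to 3.35 CPM for set A, from 2.71 to 4.96 CPM for set B and from 3.12 to 4.22 CPM with Sal003. Of 6 stromal markers tunicamycin lowered 4 and each other inhibitor 1, again beside the same shares of all genes. Their sum was 53.9 CPM on average with IL-4/IL-13, 16.1 CPM with tunicamycin, 30.8 CPM in set A, 30.5 CPM in set B and 30.5 CPM with Sal003. Single libraries ran from 16.7 to 91.3 CPM with IL-4/IL-13 and from 3.82 to 25.1 CPM with tunicamycin. They ran from 5.90 to 57.3 CPM in set A, 8.25 to 54.9 CPM in set B and 8.185 to 50.9 CPM with Sal003. Each inhibitor group thus overlapped IL-4/IL-13. The 6 lymphocyte markers summed to at most 1.23 CPM in any library. The part of these changes in the levels of the 10 genes was not tested.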

How the data were processed

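After trimming (cutadapt 1.8) and removal of ribosomal RNA and reads of low complexity, the authors used STAR 2.7 for alignment to GRCm39 and HTSeq 0.9.1 for counting per gene. The deposited values used are these raw counts for 56884 genes. The authors' RSEM TPM table was not used, since its header holds more names than its lines hold values. The 5 rows that name no gene (12.74% to 15.231% of reads) were left out. Median depth was 18999998 reads.

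edgeR 4.0.16 (R 4.3.3) was run with TMM normalization, filterByExpr by group and 1 quasi-likelihood fit over 24 libraries and 13679 genes, and p-values were adjusted over all of them by the Benjamini-Hochberg method. Alternatives were other scalings, filters and tools (DESeq2 1.42.0), a mouse block, fits of only the groups compared and leaving out each mouse or library. A gene passed at an adjusted p under 0.05, with 2.5-fold as the minimum fold. TPM was computed from counts and GRCm39 exon lengths. The scripts were tested on simulated data. The members and the lists were chosen with earlier results of these data known. Text names all members, *Atf4*, and at most the 2 largest rises and falls per list among genes that passed with a mean of at least 50 counts. *Aldh1l1* beyond that rule, the isoenzyme shares and the split by scarcity were chosen after values were seen. Some genes that the rule picks are not reported here.

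Same-numbered libraries come from the same mouse by their titles. Their deviations from group means had a median correlation of 0.24 (56 of 60 pairs above 0.1), against -0.05 between mice. Replicates differed by more than sampling noise (chi-square per gene from 2.19 to 35.9).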

Additional observations from a re-analysis of the deposited data

Results flagged for a closer look

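Of 60 groups of 4 libraries (10 genes in 6 groups), 6 had a library far from the other 3 by Dixon's test, where chance gives about 1 in 20. *Psph* was at 7.01 CPM in the IL-4/IL-13 library of mouse 2, beside 4.90 to 5.22 CPM in the other mice. *Shmt1* had such a library in 3 groups, at 5.04 CPM in the IL-4/IL-13 library of mouse 5 (others 3.26 to 3.48 CPM), at 3.12 CPM in the tunicamycin library of mouse 4 (others 4.26 to 4.43 CPM) and at 3.25 CPM in the set A library of mouse 5 (others 2.04 to 2.21 CPM). *Shmt2* was at 71.6 CPM in the set B library of mouse 5, beside 68.0 to 68.6 CPM, a gap that is small against its differences between groups. *Pycr1* was at 0.668 CPM in the IL-4/IL-13 library of mouse 1, beside 0.158 to 0.202 CPM, which are 12 counts against 3 or 4.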

How the results depend on the processing

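With at least 10 counts required in every library, *Aldh1l2* and *Pycr1* could not be tested and only 8 genes were left. Tunicamycin then raised 5 over IL-4/IL-13, beside 4373 of all 11017 genes tested. The numbers changed at least 2.5-fold were 3 for set A against IL-4/IL-13 (all genes, 370 higher and 541 lower) and 3 for set A against Sal003 (124 and 105). In the main fit they were 6 and 5. The number was 0 for set A against set B (49 and 66), tunicamycin against set A (425 and 609) and tunicamycin against set B (553 and 851). The main fit gave 1, 2 and 2 there. With 2-fold as the minimum, 6 genes changed with Sal003 against IL-4/IL-13, beside 542 higher and 1001 lower of all 13679 genes. Between tunicamycin and set B 4 changed, beside 1430 higher and 1962 lower. At 2.5-fold 2 rose and 1 fell with Sal003, and 2 changed between tunicamycin and set B. With only the 2 groups fitted, the number lower was 2 for set A against IL-4/IL-13 (all genes, 4598 of 12824) and 0 for set B against naive (3624 of 12892). With no filter, 0 of the 10 genes were lower with tunicamycin than in set A (all genes, 4058 of 27890), and there *Phgdh* reversed to 0.0016. *Mthfd2*, also near 0, reversed to 0.0295 with no filter, 0.0022 with DESeq2 and 0.0029 with DESeq2-type factors. The cause was not tested. Leaving out single mice or libraries moved the number lower between 0 and 1 for IL-4/IL-13, Sal003 and set B against naive, for set A against IL-4/IL-13 and for tunicamycin against set A, and the number changed at least 2.5-fold between set B and Sal003 from 2 to 5. In the main fit that last number was 4, beside 43 higher and 25 lower of all 13679 genes. The signs of values near 0 turned likewise. They ran from -0.0317 to 0.98 for *Pycr1* and from -0.0624 to 0.0037 for *Shmt2* with Sal003 against IL-4/IL-13, and from -0.13 to 0.0609 for *Psat1* in set B against IL-4/IL-13. They ran from -0.18 to 0.0134 for *Psat1* between the sets and from -0.39 to 0.23 for *Shmt1* between set B and Sal003. Between tunicamycin and set A they ran from -0.0288 to 0.0251 for *Mthfd2* and from -0.0737 to 0.0138 for *Phgdh*. The replicate block by mouse changed no other call of a single gene than those given above for *Shmt1* and *Psat1* and moved no count by over 1.5 times. *Mthfd2* between tunicamycin and set B did not pass in 12 alternatives, with adjusted p up to 0.18. Depth limits *Aldh1l2* and *Pycr1*, with as few as 2 and 3 counts in a library.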

Other observations

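Of the mitochondrial dehydrogenases that act on methylene-tetrahydrofolate, *Mthfd2* outweighed *Mthfd2l* in every group. It made up 91.5% ± 0.71 (SD, n = 4) of their summed TPM in naive BMDM, 96.0% ± 0.72 with IL-4/IL-13 and between 98.8% and 99.6% on average in the inhibitor groups. *Mthfd2l* was chosen after its values were seen.

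Of 12 tested genes of de novo purine synthesis, which draws on formate and glycine, 11 rose and 1 fell with the cytokines (all genes, 30.1% and 30.4%), with a median log2 fold change of 0.44 beside -0.02 for all genes. *Prps1*, which makes the ribose donor, rose from 7.26 to 42.9 CPM (log2 fold change 2.56, SE 0.06, adjusted p = 2.5e-21), and *Atic*, of the last steps to inosine monophosphate, from 47.3 to 181 CPM (1.94, 0.07, 3.7e-17). With tunicamycin 3 of the 12 rose and 6 fell (all genes, 38.7% and 37.6%), with set A 5 and 5 (34.0% and 32.2%), with set B 4 and 6 (27.9% and 26.4%) and with Sal003 4 and 5 (25.9% and 24.6%). *Impdh1*, of guanine nucleotide synthesis, fell by 1.19 with the cytokines and rose by 3.60 with tunicamycin. Of 8 testable genes of the methionine cycle and transsulfuration, the cytokines raised 5 and lowered 1, tunicamycin raised 3 and lowered 2, set A raised 2 and lowered 1, set B raised 2 and lowered 2, and Sal003 raised 0 and lowered 3, beside the same shares of all genes.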
